A study of Mus musculus with 12 samples.

Results

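The 10 genes described here are markers of macrophages and other leucocytes: Adgre1, Csf1r, Cd68, C1qa, C1qb, C1qc, Cd163, Mrc1, Ptprc and Laptm5. They were chosen by name from 18820 genes with a signal on the arrays, and each had 1 probe set, so all 10 were measured. Gene expression was measured on 12 Affymetrix Mouse Gene 1.1 ST arrays with total RNA of hind limb skeletal muscle and of heart. The mice were C57BL/6, 11 days old, and either wild type (Tk2+/+) or constitutive Tk2 knockout (Tk2-/-), which lack thymidine kinase 2, the mitochondrial kinase that phosphorylates thymidine and deoxycytidine for mitochondrial DNA. Each of the 4 groups of tissue and genotype held 3 arrays, from 3 mice, and no other allele or agent was named. The knockout was present in every cell, so leucocytes carried it as well as muscle cells. The study compared the genotypes within each tissue to see how gene expression changed without thymidine kinase 2.

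Tissue macrophages of muscle and heart come from yolk sac, fetal liver and bone marrow, and their survival depends on the receptor Csf1r and its ligands Csf1 and Il34. Adgre1 encodes the surface receptor F4/80, Cd68 a glycoprotein of late endosomes and lysosomes, and C1qa, C1qb and C1qc the 3 chains of complement C1q, which tissue macrophages secrete. Cd163 is the scavenger receptor for complexes of haptoglobin and haemoglobin, and Mrc1 is the mannose receptor CD206, both known from tissue-resident and scavenging macrophages. Ptprc (CD45), the phosphatase found on all leucocytes, and Laptm5, a lysosomal membrane protein of blood cells, are not limited to macrophages. In whole tissue, fewer cells of a type and less RNA per cell cannot be told apart.

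The annotated genome held C1qb, C1qc and C1qa side by side on chromosome 4, from base 136880126 to 136898844 of GRCm38.p6, with no other RefSeq gene between them. The other 7 genes lay elsewhere. Promoter sequences were shown for the 3 genes that differed between genotypes in skeletal muscle and for the C1q pair that moved most alike. Each is the 250 bases before the transcript start that the RefSeq promoter set uses on GRCm38.p6, written 5′ to 3′ on the strand of the gene, with capitals for GAGGAA, a core that PU.1, the factor of myeloid cells, is known to bind, or TGAGTCA, the AP-1 site, on either strand (TTCCTC or TGACTCA on the other). The windows are chr11:69666171-69666420 (minus strand) for Cd68, chr6:124304401-124304650 (plus) for Cd163, chr2:14229164-14229413 (plus) for Mrc1, chr4:136886201-136886450 (minus) for C1qb and chr4:136892915-136893164 (minus) for C1qc.
Cd68: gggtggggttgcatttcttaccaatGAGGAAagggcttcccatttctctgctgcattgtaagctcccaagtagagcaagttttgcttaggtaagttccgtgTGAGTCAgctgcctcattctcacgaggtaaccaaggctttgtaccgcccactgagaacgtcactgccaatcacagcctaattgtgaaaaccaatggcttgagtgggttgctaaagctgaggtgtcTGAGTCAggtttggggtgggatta
Cd163: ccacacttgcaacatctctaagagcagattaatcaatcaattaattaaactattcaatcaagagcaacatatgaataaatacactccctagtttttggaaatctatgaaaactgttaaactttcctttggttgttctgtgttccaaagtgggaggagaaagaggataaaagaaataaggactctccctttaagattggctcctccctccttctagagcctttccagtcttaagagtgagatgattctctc
Mrc1: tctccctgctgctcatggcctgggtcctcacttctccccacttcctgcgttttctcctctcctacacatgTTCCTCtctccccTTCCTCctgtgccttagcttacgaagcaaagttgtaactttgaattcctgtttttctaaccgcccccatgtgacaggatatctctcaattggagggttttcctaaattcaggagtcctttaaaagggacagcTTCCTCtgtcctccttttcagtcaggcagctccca
C1qb: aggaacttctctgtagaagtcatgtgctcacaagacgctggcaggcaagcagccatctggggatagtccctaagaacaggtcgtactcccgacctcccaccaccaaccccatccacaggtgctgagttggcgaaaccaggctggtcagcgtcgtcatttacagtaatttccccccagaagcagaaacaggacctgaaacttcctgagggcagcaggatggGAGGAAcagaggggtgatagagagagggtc
C1qc: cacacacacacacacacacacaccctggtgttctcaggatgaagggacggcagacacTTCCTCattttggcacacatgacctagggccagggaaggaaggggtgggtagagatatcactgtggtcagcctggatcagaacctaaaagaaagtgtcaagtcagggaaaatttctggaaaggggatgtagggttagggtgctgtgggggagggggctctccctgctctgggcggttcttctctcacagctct
The GAGGAA letters occurred 3 times before Mrc1 and 1 time each before Cd68, C1qb and C1qc, and 0 times before Cd163. TGAGTCA occurred 2 times before Cd68 and in none of the other windows shown. Of 32851 RefSeq promoters of this length, 23.3% held GAGGAA and 4.46% held TGAGTCA, and no marked stretch overlapped another. RefSeq promoters were at hand for 7 of the 10 genes. For Cd163 and C1qc that start lies just inside the annotated gene, so the last bases of their windows belong to the gene. These are matches of letters, and binding was not measured.

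The signal of Tk2 itself was 62.9, 68.5 and 63.1 in the Tk2+/+ skeletal muscle arrays and 64.7, 44.1 and 48.7 in the Tk2-/- ones, and 70.2, 73.6 and 81.8 against 30.1, 46.2 and 31.7 in heart. It was lower in heart by 0.82 ± 0.13 on the log2 scale (SE; limma, adjusted p = 7.62e-05), while in skeletal muscle the groups overlapped at a difference of -0.25 (adjusted p = 0.208). The sources used here do not say whether its probes lie in the deleted part, so the signal checks no label. The arrays matched their tissue: Casq1, the calsequestrin of skeletal muscle fibres, read 4791 or more in every skeletal muscle array and at most 660.0 in heart, and Nppa, the atrial natriuretic peptide, read 705 or more in every heart array and at most 12.3 in skeletal muscle. Myl7, an atrial light chain, varied from 13.3 to 2641 within the Tk2+/+ hearts and from 144.4 to 1966 within the Tk2-/- hearts, and Casq1 read 428.4 to 660.0 in Tk2+/+ and 34.3 to 68.5 in Tk2-/- hearts. The part of atrial or skeletal muscle tissue in the heart results was not tested. The 3 Tk2-/- heart arrays were dimmer as a whole, with a mean signal per array of 146.7 to 168.4 against 201.8 to 252.4 in the other 9. Heart results are therefore given on the deposited values and after quantile normalization within each tissue, which gives the 6 arrays of a tissue the same distribution.

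In skeletal muscle, 2 arrays stood apart by markers of other blood cells. In Tk2+/+ replicate 1 the 10 measured B cell genes summed to 829.4 against 278.6 and 297.0 in the other Tk2+/+ muscle arrays and 276.9 to 326.0 in Tk2-/- muscle. The 15 T and NK cell genes summed to 767.3 there, against 413.1 and 373.1, and 261.0 to 294.2 in Tk2-/- muscle. This array was the highest of all 12 for 9 of the 10 B cell genes, 12 of the 15 T and NK cell genes and all 8 measured MHC class II genes. In Tk2-/- replicate 2 the 12 neutrophil genes summed to 1803, against 330.3 and 424.1 in the other Tk2-/- muscle arrays and 202.4 to 231.0 in Tk2+/+ muscle, and all 12 were at their highest of the 12 arrays. No gene of these lists read 0 in any array. The 10 genes' calls in skeletal muscle are given with and without these arrays, and so are the counts of other lists that moved by over 1.5 times.

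**Figure D1:**
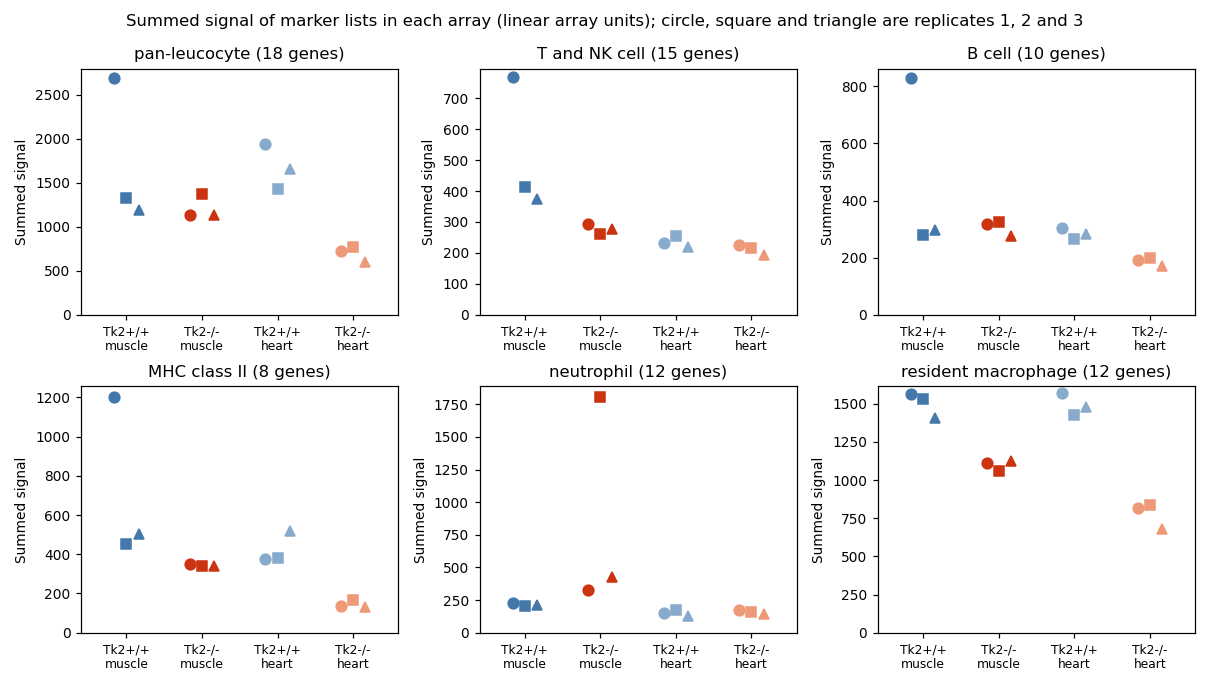
Summed signal (vertical axis, linear array units) of 6 marker lists in each of the 12 arrays, by tissue and genotype on the horizontal axis, with circle, square and triangle for replicates 1, 2 and 3. Tk2+/+ skeletal muscle replicate 1 is highest for the pan-leucocyte, T and NK cell, B cell and MHC class II lists, and Tk2-/- skeletal muscle replicate 2 reaches 1803 for the neutrophil list.

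In skeletal muscle, Cd68 and Cd163 rose and Mrc1 fell in Tk2-/- mice, while the other 7 genes did not pass the test. Levels are linear array signals, listed for replicates 1, 2 and 3, and differences are log2(signal + 16), Tk2-/- minus Tk2+/+, from limma, called at an adjusted p under 0.05 over 18820 genes. Folds are taken from these differences, so they are folds of signal + 16 and smaller than folds of the signals listed. Of all genes, 11.6% were called higher and 10.9% lower in this tissue, against 2 and 1 of the 10. Among the 5886 genes with a mean signal in the range of the 10, 17.1% were called higher and 17.4% lower. Counts of 2 and 1 in 10 are thus near the shares of equally bright genes. The signal of Cd68, the endosomal and lysosomal glycoprotein, was 119.5, 128.8 and 114.4 in Tk2+/+ and 212.6, 255.3 and 276.5 in Tk2-/- arrays. Every Tk2-/- array lay above every Tk2+/+ array, and the difference was 0.94 ± 0.11 (SE, adjusted p = 2.96e-05), 1.92-fold.

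The signal of Cd163, the haptoglobin and haemoglobin receptor, was 55.1, 48.5 and 60.8 in Tk2+/+ and 122.6, 106.5 and 111.3 in Tk2-/- arrays. The groups did not overlap, and the difference was 0.87 ± 0.14 (limma, adjusted p = 0.000333), 1.83-fold. Mrc1, the mannose receptor, went the other way, with 291.3, 319.0 and 250.5 in Tk2+/+ and 157.1, 158.4 and 167.7 in Tk2-/- arrays. All 3 Tk2-/- values were below all Tk2+/+ values, the difference being -0.77 ± 0.12 (limma, adjusted p = 0.000369), or 1.70-fold lower. Non-overlap of this kind was seen upward in 16.9% and downward in 18.8% of all genes. These 3 calls held when each array was left out in turn, with differences of 0.86 to 1.04 for Cd68, 0.81 to 0.93 for Cd163 and -0.86 to -0.69 for Mrc1, and when both arrays with other blood cell markers were left out.

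**Figure D2:**
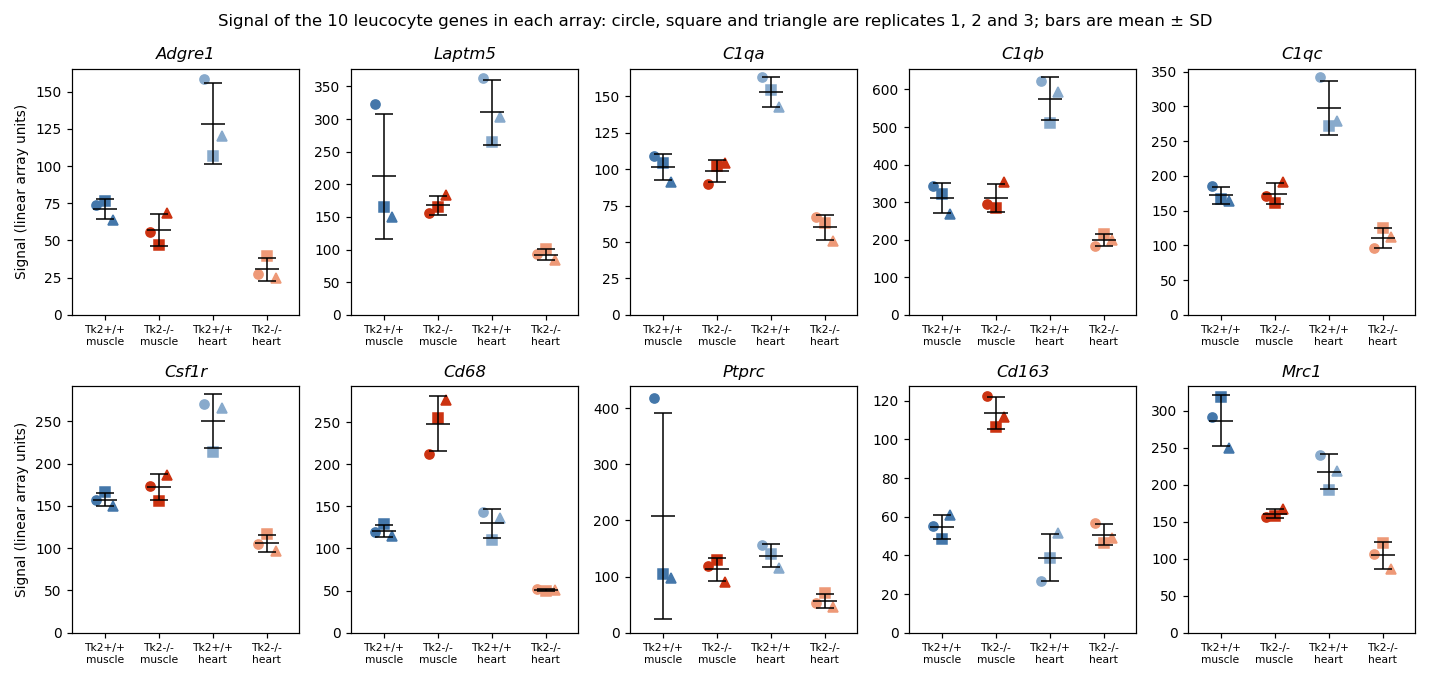
Signal of each of the 10 genes (vertical axis from 0, linear array units, a separate scale per gene) in the 12 arrays by tissue and genotype. Circles, squares and triangles are replicates 1, 2 and 3, and bars are mean ± SD of 3 arrays. Cd68 and Cd163 are highest in Tk2-/- muscle, and all genes except Cd163 are lowest in Tk2-/- heart.

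None of the complement C1q genes passed the test in skeletal muscle. C1qb read 343.1, 321.9 and 267.4 in Tk2+/+ and 294.2, 285.5 and 353.1 in Tk2-/- arrays, C1qc 185.4, 166.7 and 163.7 against 170.6, 161.1 and 191.2. C1qa read 108.9, 104.5 and 91.3 against 89.9, 101.9 and 104.2. The groups overlapped for all 3, with limma differences of 0.00 (95% interval -0.25 to 0.26), 0.02 (-0.23 to 0.26) and -0.04 (-0.27 to 0.19) in that order. Csf1r, the receptor for Csf1 and Il34, read 156.7, 166.0 and 149.9 in Tk2+/+ and 174.2, 156.1 and 187.2 in Tk2-/- arrays, again overlapping (0.12, limma, adjusted p = 0.55). For Adgre1 the values were 74.0, 76.2 and 63.7 against 55.6, 47.1 and 68.6, with a difference of -0.26 (limma, adjusted p = 0.262). A p above the threshold does not show equal levels.

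The pan-leucocyte genes were set by 1 array. Ptprc read 419.1 in Tk2+/+ replicate 1 against 104.1 and 98.2 in the other Tk2+/+ muscle arrays, and 119.4, 128.8 and 90.2 in Tk2-/- muscle. Laptm5 read 322.4 in that array, against 165.1 and 149.4, and 155.4, 164.8 and 184.0 in Tk2-/- muscle. With all arrays the limma differences were -0.51 ± 0.36 for Ptprc (SE, adjusted p = 0.386) and -0.24 ± 0.20 for Laptm5 (adjusted p = 0.499). Without Tk2+/+ replicate 1 they were 0.12 (adjusted p = 0.738) and 0.09 (adjusted p = 0.791), on the other side of 0. Over all 10 genes the median difference was -0.02, equal to the -0.02 of all genes tested.

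**Figure D3:**
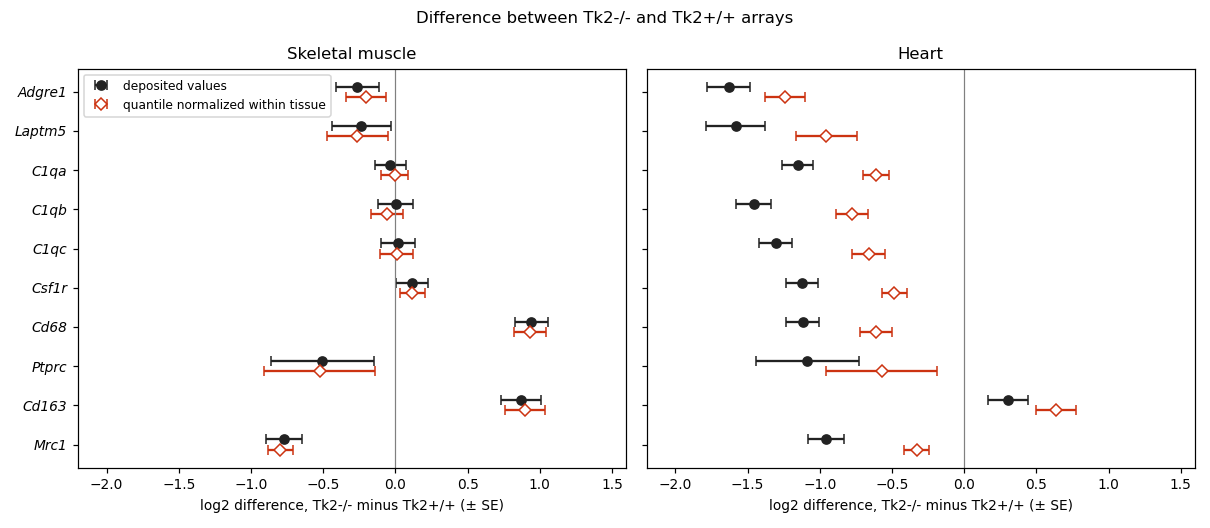
Log2 difference, Tk2-/- minus Tk2+/+ (horizontal axis, error bars are SE from limma), of each of the 10 genes in skeletal muscle (left) and heart (right). Filled circles are the deposited values and open diamonds the values after quantile normalization within the tissue: in muscle both agree, and in heart the diamonds lie nearer 0 except for Cd163, which goes from 0.30 to 0.64.

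Further marker genes of macrophages and monocytes, taken from lists drawn up with earlier results of these data known, are given by list for skeletal muscle. There 11.6% of all genes were called higher and 10.9% lower. Of 12 resident macrophage genes 5 fell and 0 rose, with a list median of -0.39. Cd209f, a lectin of tissue macrophages, fell most, from 123.4, 72.9 and 78.1 in Tk2+/+ to 33.0, 24.6 and 31.6 in Tk2-/- arrays (-1.21, limma, adjusted p = 3.03e-05). Stab1, a scavenger receptor, was lower by -0.73 (adjusted p = 0.000617) and Folr2, the folate receptor of resident macrophages, by -0.72 (adjusted p = 0.000168). The 5 calls were also 5 without both arrays with other blood cell markers. Of 18 other macrophage genes 2 rose, Mpeg1 (perforin-2, 0.62, adjusted p = 0.048) and Lyz2 (lysozyme, 0.49, adjusted p = 0.0226), and the list median was 0.02. None of the 18 was called higher without Tk2-/- replicate 2. Mpeg1 and Lyz2 both passed without Tk2+/+ replicate 1 and without both arrays. After quantile normalization 4 of the 18 were called higher and 0 lower, where 13.9% of all genes were higher. Mpeg1 was among these 4 (limma, adjusted p = 0.0379) and Lyz2 was not (adjusted p = 0.06). None of 6 monocyte genes passed the test, with 0 higher and 1 lower at an unadjusted p under 0.05. Plac8 of this list passed upward without Tk2+/+ replicate 1 (0.79, adjusted p = 0.00137) and without both arrays (0.68, adjusted p = 0.00744).

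Among the 12 genes of haem and iron handling, 4 rose and 0 fell. Hmox1, haem oxygenase, read 89.6, 91.8 and 87.0 in Tk2+/+ and 381.5, 712.2 and 266.1 in Tk2-/- arrays (2.04, limma, adjusted p = 2.39e-05). Slc40a1, the iron exporter ferroportin, rose by 1.73 (adjusted p = 0.000531), and Hp, haptoglobin, whose haemoglobin complex is the ligand of Cd163, by 2.23 (adjusted p = 9.25e-07). Hmox1, Slc40a1 and Hp were each highest in Tk2-/- replicate 2, the array with high neutrophil genes, and were above every Tk2+/+ muscle array in the other Tk2-/- arrays too. Of the 12 lysosome genes 4 rose, led by Ctsl, the protease cathepsin L (1.64, adjusted p = 4.12e-06), Lamp1 (0.51) and Lamp2 (0.50), which like Cd68 belong to the lysosomal membrane family, and 2 fell, Laptm4b (-0.77) and Ctsz (-0.37). Without both arrays that stood apart, 1 of the 12 was called higher, Ctsl, and 1 lower, Laptm4b, and Ctsz was not called when either array was left out alone. Muscle fibres also express lysosomal and haem genes, so these lists are not specific to macrophages.

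The ligand Csf1 fell in skeletal muscle, from 183.7, 185.4 and 169.7 in Tk2+/+ to 124.1, 105.8 and 98.6 in Tk2-/- arrays (-0.64, limma, adjusted p = 0.00121). Il34, the other ligand of Csf1r, differed by 0.27 (adjusted p = 0.0649), with 63.6, 77.5 and 78.4 against 88.8, 90.2 and 95.6. Of 13 factors of myeloid cells 3 rose, Cebpb (1.48), Runx1 (1.16) and Cebpa (0.60), all transcription factors that other cell types also use, and 2 fell, Maf (-0.78) and Csf1. Without Tk2-/- replicate 2, 2 of these factors were called higher, Cebpb and Runx1. The lectin receptor list had 1 of 8 called, Mrc2, a relative of Mrc1 found mainly on fibroblasts, which fell by 1.01. In the complement list 2 of 13 fell, Cd55 (-0.98) and Cd93 (-0.73), and in the list of Src and ITAM signaling 0 of 8 were called, with 0 higher and 1 lower at an unadjusted p under 0.05.

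The markers of other cells in skeletal muscle moved as follows. The neutrophil list had 7 of 12 genes higher, with Ngp at 2.19, S100a8 at 1.81 and S100a9 at 1.42, but 4 of 12 were called when either array that stood apart was left out alone and 3 without both. The MHC class II list had 6 of 8 genes lower, with Cd74 at -1.13, H2-Ob at -0.90 and H2-Ab1 at -0.82, but 1 of 8 without Tk2+/+ replicate 1, 0 without Tk2-/- replicate 2 and 0 without both. In the pan-leucocyte list Lcp2 (-0.61) and Cyth4 (-0.47) fell, 2 of 18, and 0 of 18 without either of these arrays. Cd28, a receptor of T cells, was the only one of 15 T and NK cell genes to pass and fell by 2.13, with 115.4 to 167.6 in Tk2+/+ and 12.2 to 25.2 in Tk2-/- arrays. The median of that list was -0.21, and -0.03 without both arrays, so this is a result of 1 gene and not of the list. None of 10 B cell genes was called, with 0 at an unadjusted p under 0.05, and Kit alone fell of 8 mast cell genes (-0.64). Of 11 fibroblast genes 7 fell, among them Lum (-1.55), Col1a2 (-1.43) and Col3a1 (-1.43), and Pdgfra rose (0.39). Pdgfra was not called when either array was left out alone or when both were, and 5 fibroblast genes were lower without both. The endothelial list held 1 rise (Flt1, 0.52) and 1 fall (Kdr, -0.58) in 14 genes on the deposited values. After quantile normalization 1 of these 14 was higher and 4 were lower, where 14.8% of all genes were lower. The adipocyte list held 5 rises in 6, led by Cidec (2.16), Adipoq (1.35) and Retn (1.27), and 1 fall (Lep, -0.63). Without both arrays Flt1 was not called, and 3 of the 6 adipocyte genes were higher, Cidec, Fabp4 and Retn. Whether these cells contribute to the values of the 10 genes was not tested.

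In heart, 9 of the 10 genes fell in Tk2-/- mice on the deposited values, and Cd163 did not. Of all genes, 49% were called lower and 1.99% higher there, and among the 7299 genes with a mean signal in the range of the 10, 80% were called lower, so a share of 9 in 10 is near that of equally bright genes. Adgre1 (F4/80) read 158.8, 106.5 and 120.1 in Tk2+/+ and 27.6, 39.4 and 24.5 in Tk2-/- arrays. It changed most of the 10, by -1.63 ± 0.15 (limma, adjusted p = 1.45e-06), 3.10-fold lower. Laptm5 followed at -1.58 ± 0.20 (adjusted p = 1.41e-05), with 363.4, 264.5 and 303.0 against 93.2, 100.5 and 83.5. The groups were far apart for both.

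The 3 C1q chains fell together in heart. C1qb read 622.9, 511.0 and 592.2 in Tk2+/+ and 182.8, 216.0 and 198.1 in Tk2-/- arrays (-1.46 ± 0.12, limma, adjusted p = 7.13e-07). C1qc read 342.1, 271.9 and 278.5 against 95.8, 125.0 and 111.4 (-1.31 ± 0.12, adjusted p = 1.13e-06), and C1qa 163.0, 154.1 and 142.5 against 67.0, 63.2 and 50.6 (-1.15 ± 0.11, adjusted p = 1.54e-06). None of the 3 overlapped between genotypes. Csf1r, the growth factor receptor, read 270.9, 213.6 and 266.3 against 104.5, 116.7 and 96.8, a difference of -1.12 ± 0.11 (limma, adjusted p = 2.16e-06).

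Cd68, which rose in skeletal muscle, fell in heart from 142.8, 109.9 and 136.3 to 51.5, 49.9 and 51.0, by -1.12 ± 0.11 (limma, adjusted p = 2.5e-06). Mrc1, which fell in both tissues, read 240.6, 193.3 and 218.8 in Tk2+/+ and 107.2, 121.9 and 85.7 in Tk2-/- heart (-0.96 ± 0.12, limma, adjusted p = 1.55e-05). Ptprc was 157.0, 140.2 and 115.6 against 53.3, 70.1 and 46.2, and its difference of -1.09 ± 0.36 (adjusted p = 0.0177) passed in 4 of 6 fits that left out 1 heart array; it was lost without Tk2+/+ replicate 1 (adjusted p = 0.0581) or Tk2-/- replicate 3 (adjusted p = 0.0661). The large error of Ptprc is shared with skeletal muscle, where 1 array read 419.1. Cd163 alone was not lower, with 26.8, 38.6 and 51.4 in Tk2+/+ and 56.9, 46.5 and 48.8 in Tk2-/- heart, where the groups overlapped by Tk2+/+ replicate 3 (0.30 ± 0.14, adjusted p = 0.0849). Without that array Cd163 passed the test (0.46, adjusted p = 0.00771). All 9 other genes had every Tk2-/- array below every Tk2+/+ array, as 53.3% of all genes did, against 3.16% with every Tk2-/- array above.

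After quantile normalization within each tissue, 8 of the 10 genes were called lower and 1 higher in heart, where 17.8% of all genes were called lower and 13.8% higher. Among genes in the signal range of the 10, 26.8% were called lower and 19.4% higher. The median of the 10 was -0.61, against 0.00 for all genes, while on the deposited values it was -1.14 against -0.28, and -0.62 for the genes in the same range of signal. Adgre1 was lowest at -1.24 ± 0.14 (limma, adjusted p = 4.91e-05), then Laptm5 at -0.96, C1qb at -0.77, C1qc at -0.66, Cd68 and C1qa at -0.61, Csf1r at -0.48 and Mrc1 at -0.33 (adjusted p = 0.00991). Ptprc, at -0.57 ± 0.38, did not pass (adjusted p = 0.289). Cd163 passed upward at 0.64 ± 0.14 (adjusted p = 0.00397). In skeletal muscle the calls stayed at Cd68 (0.93), Cd163 (0.90) and Mrc1 (-0.80), with 13.9% of genes called higher and 14.8% lower. Among genes in the signal range of the 10 in skeletal muscle, 21.8% were called higher and 21.8% lower.

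Genes of the other macrophage lists also fell in heart, where most genes of like signal did. All 18 other macrophage genes fell on the deposited values, with a median of -0.75. After quantile normalization 10 of the 18 fell, with a median of -0.44. Of all genes, 49% were called lower on the deposited values and 17.8% after quantile normalization. Among genes in the signal range of the 10, these shares were 80% and 26.8%. Fcer1g and Tyrobp, the adaptor chains of activating receptors, fell by 1.40 and 1.23, and Lyz2, which rose in skeletal muscle, by 1.25. Of 12 resident macrophage genes 7 fell, led by Pf4 (-1.47), Cbr2 (-1.36) and Stab1 (-1.31), and 5 were lower and 1 higher after quantile normalization. Cd209f, the gene of this list that fell most in skeletal muscle, read 11.6 to 13.6 in Tk2+/+ heart. Csf1 fell from 405.0, 316.3 and 316.7 to 113.5, 142.6 and 115.3 (-1.37, limma, adjusted p = 1.06e-06, and -0.71 after quantile normalization), and Il34 was 38.7, 44.9 and 47.3 against 36.0, 34.5 and 41.0 (-0.17, adjusted p = 0.202).

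Among the leucocyte lists in heart, 13 of 18 pan-leucocyte genes fell, with Lcp1, the actin bundler plastin-2, at -2.09, Arhgdib at -1.37 and Cd53 at -1.23, and 8 of 18 after quantile normalization. The MHC class II list had 6 of 8 lower, led by Cd74 (-1.90), H2-Ab1 (-1.45) and H2-Aa (-1.22), and 4 lower and 1 higher after quantile normalization. Lymphocyte and neutrophil lists moved little on the deposited values: 1 of 15 T and NK cell genes fell (Gzma, -0.27), 1 of 10 B cell genes (Cd79b, -1.28), and 1 of 12 neutrophil genes rose (Elane, 0.29). Many of these genes were dim, since the summed neutrophil signal was 127.5 to 172.4 over 12 genes in the 6 heart arrays. Myeloid factors fell in 7 of 13, with Runx1 at -1.03 and Irf8 at -0.82, and in 3 of 13 after quantile normalization. Monocyte genes fell in 2 of 6 (Ace, -0.83, and Itgal, -0.58) and mast cell genes in 3 of 8, led by Kit (-1.18), where 49% of all genes fell. After quantile normalization 1 of the 6 monocyte genes and 1 of the 8 mast cell genes were lower, 0 of the T and NK cell and 0 of the B cell genes, and 1 neutrophil gene was higher. On that scale 17.8% of all genes were lower and 13.8% higher.

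The lists of other cells and of shared functions differed from each other in heart. There 49% of all genes were called lower and 1.99% higher, and 80% of genes in the signal range of the 10 were lower. After quantile normalization 17.8% of all genes were lower and 13.8% higher. Fibroblast genes fell in 11 of 11, with Pi16 at -2.61, Col3a1 at -2.30 and Dpt at -1.98, and endothelial genes in 13 of 14, led by Kdr (-1.57). After quantile normalization 8 of 11 fibroblast genes were lower and 1 higher, and 5 of 14 endothelial genes lower and 2 higher. The summed fibroblast signal was 11481 to 14372 in Tk2+/+ and 5807 to 6690 in Tk2-/- heart, and the summed signal of the 10 leucocyte genes was 2004 to 2488 and 796.7 to 949.2. Complement genes fell in 10 of 13, led by Cd93 (-1.55), haem and iron genes in 7 of 12, led by Tfrc (-2.86), lysosome genes in 9 of 12, led by Ctsz (-1.33), lectin receptors in 4 of 8, led by Mrc2 (-1.49), and Src and ITAM signaling genes in 5 of 8, led by Fyn (-1.08). After quantile normalization these counts were 4, 3, 1, 3 and 3 lower, and 3 lysosome genes were higher. Erythroid genes fell in 3 of 4, skeletal fibre genes in 8 of 11, cardiomyocyte genes in 3 of 8 and adipocyte genes in 1 of 6, the last with a median of 0.15. After quantile normalization these counts were 2, 7, 1 and 0 lower. In skeletal muscle these 4 lists had, of the same numbers, 0, 0, 2 and 1 lower, and 1 cardiomyocyte gene was lower without both arrays that stood apart. What part the other cell types have in the levels of the 10 genes was not tested.

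**Figure D4:**
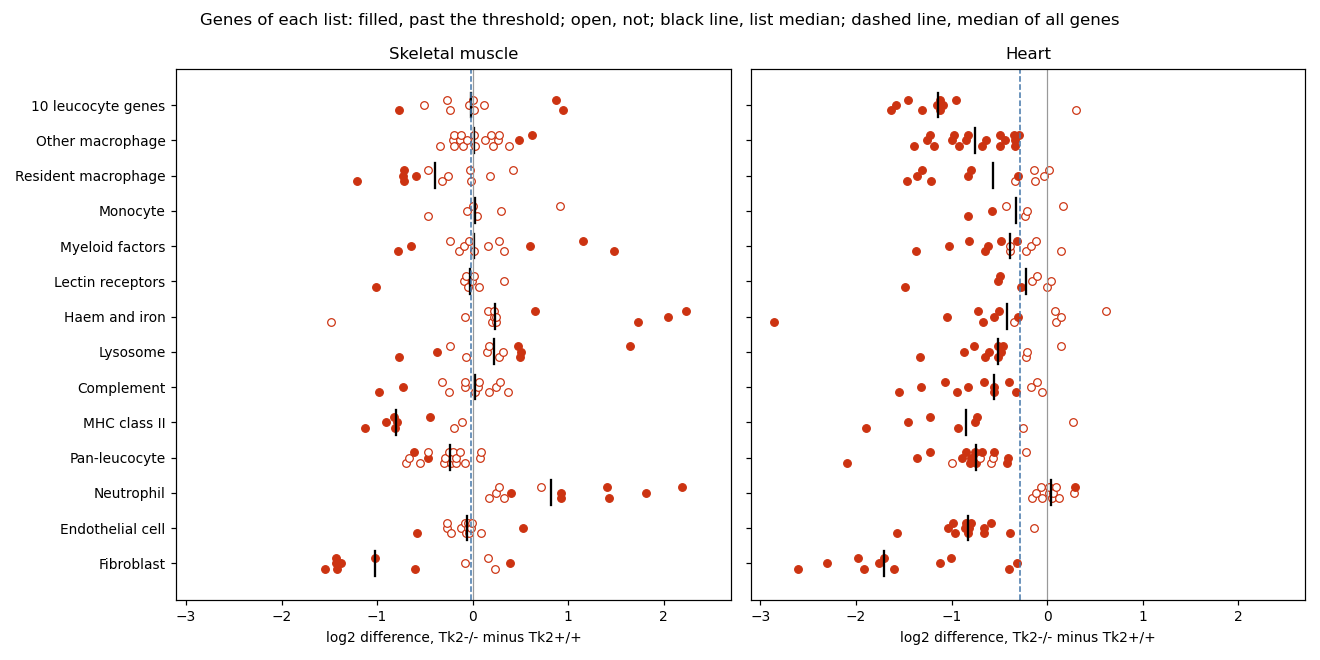
Log2 difference, Tk2-/- minus Tk2+/+, on the deposited values (horizontal axis) of every measured gene of 14 lists in skeletal muscle (left) and heart (right). Filled points passed the limma test at an adjusted p of 0.05, open points did not, black lines are list medians and the dashed line is the median of all 18820 genes (-0.02 and -0.28). In heart the medians of the 10 leucocyte genes (-1.14) and fibroblast genes (-1.71) lie left of the dashed line, and that of the neutrophil genes (0.04), many of them dim there, does not. Genes in the signal range of the 10 had a median of -0.62 in heart, which is not drawn.

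The genotype difference itself differed between the tissues for 8 of the 10 genes, skeletal muscle minus heart being above 0 in each, where 41.3% of all genes were called in that direction and 1.39% in the other. Among the 6226 genes with a mean signal in the range of the 10, 69.9% were called in that direction, so a share of 8 in 10 is near that of equally bright genes. Cd68 had the widest gap of the 10, 2.06 ± 0.16 (limma, adjusted p = 2.07e-06), since it rose in 1 tissue and fell in the other. C1qb (1.46), Adgre1 (1.37), Laptm5 (1.35), C1qc (1.32), Csf1r (1.24) and C1qa (1.12) followed, and Cd163 was at 0.57 (adjusted p = 0.029). Cd163 passed in 7 of 12 fits that left out 1 array. Ptprc (0.58, adjusted p = 0.417) and Mrc1 (0.19, adjusted p = 0.456) were not called, although Ptprc was called without Tk2+/+ skeletal muscle replicate 1 (1.21, adjusted p = 0.000918).

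With quantile normalization within each tissue, 6 genes were called above 0 and 1 below, where 5.97% of all genes were above and 4.54% below. Cd68 remained the widest at 1.54 ± 0.15 (limma, adjusted p = 0.00011), followed by Adgre1 (1.04), C1qb (0.71), C1qc (0.67), C1qa (0.60) and Csf1r (0.60). Laptm5 (0.69, adjusted p = 0.164) and Cd163 (0.26, adjusted p = 0.448) were no longer called. Mrc1 was called below 0, at -0.47 ± 0.12 (adjusted p = 0.0271), its fall being the larger in skeletal muscle on this scale, but this call was lost without both arrays with other blood cell markers (-0.44, adjusted p = 0.109). Without both arrays, 7 of the 10 genes were called above 0 and 0 below on this scale. These values share their arrays with the comparisons within each tissue and are not separate evidence.

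In Tk2+/+ mice, 6 of the 10 genes were lower in skeletal muscle than in heart and 2 were higher, where 18.4% of all genes were called lower and 30.6% higher. Among genes in the signal range of the 10, 30.5% were called lower and 20.5% higher. C1qb (-0.86), C1qc (-0.73), Adgre1 (-0.71), Csf1r (-0.61), Laptm5 (-0.58) and C1qa (-0.53) were the lower ones, and Cd163 (0.39, limma, adjusted p = 0.0317) and Mrc1 (0.37, adjusted p = 0.0221) the higher ones. Laptm5, Cd163 and Mrc1 each passed in only 2 of 6 fits that left out 1 array. After quantile normalization over 12 arrays 5 were lower and 1 higher, since Laptm5 (-0.49, adjusted p = 0.0789) and Cd163 (0.17, adjusted p = 0.37) were not called. On that scale 21.9% of all genes were lower and 19.3% higher, and 31.2% and 23.9% of genes in that signal range. Cd68 (-0.08, adjusted p = 0.559) and Ptprc (0.25, adjusted p = 0.58) were not called. In Tk2-/- mice the order turned, with 9 genes higher in skeletal muscle, from Mrc1 (0.56) to Cd68 (1.98). There 59.5% of all genes were higher, and 71.4% of genes in that signal range. All 10 genes had every skeletal muscle array above every heart array, as 67.8% of all genes did. After quantile normalization over 12 arrays, 2 of the 9 were called, Cd68 (1.46, adjusted p = 1.64e-07) and Cd163 (0.47, adjusted p = 0.0167). Called in this direction were 19.1% of all genes and 27.6% of those in that range.

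Since a whole array can be dim, each gene was also set against the mean log2 signal of the other 9 in the same array. The level of this measure depends on the probes, so it was compared between groups only, and with 3 arrays against 3 an exact permutation test cannot go below p = 0.1. In skeletal muscle Cd68 went from -0.27 ± 0.24 to 0.76 ± 0.16 (SD, n = 3 arrays) and Cd163 from -1.33 ± 0.30 to -0.38 ± 0.13, each with all Tk2-/- arrays above all Tk2+/+ arrays. Mrc1 went from 0.997 ± 0.227 to 0.13 ± 0.02, with all Tk2-/- arrays below. The other 7 genes overlapped between genotypes.

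In heart the same measure set Cd163 apart, at -2.10 ± 0.45 in Tk2+/+ and -0.53 ± 0.20 in Tk2-/- arrays (SD, n = 3 each), without overlap. The signal of Cd163 itself differed by 0.30 there on the deposited values and was not called, while the other 9 genes fell. Cd163 was the dimmest of the 10 in heart, with a mean signal of 44.8. The median difference in heart was -0.28 for all genes and -0.62 for genes in the signal range of the 10. What part brightness has in the value of Cd163 was not tested. Adgre1 (-0.55 ± 0.17 to -1.12 ± 0.14), Laptm5 (0.77 ± 0.11 to 0.24 ± 0.02) and C1qb (1.73 ± 0.04 to 1.34 ± 0.11) had all Tk2-/- arrays below. The difference of Adgre1 on this measure was -0.58, and -0.88 with an offset of 1. Cd68 was -0.52 ± 0.08 and -0.53 ± 0.14, so that its rise against the other 9 was seen in skeletal muscle and not in heart. Csf1r, C1qa, C1qc, Ptprc and Mrc1 also overlapped. Because the 9 reference genes include Cd163 and the others that moved, the 10 values are not independent of each other.

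**Figure D5:**
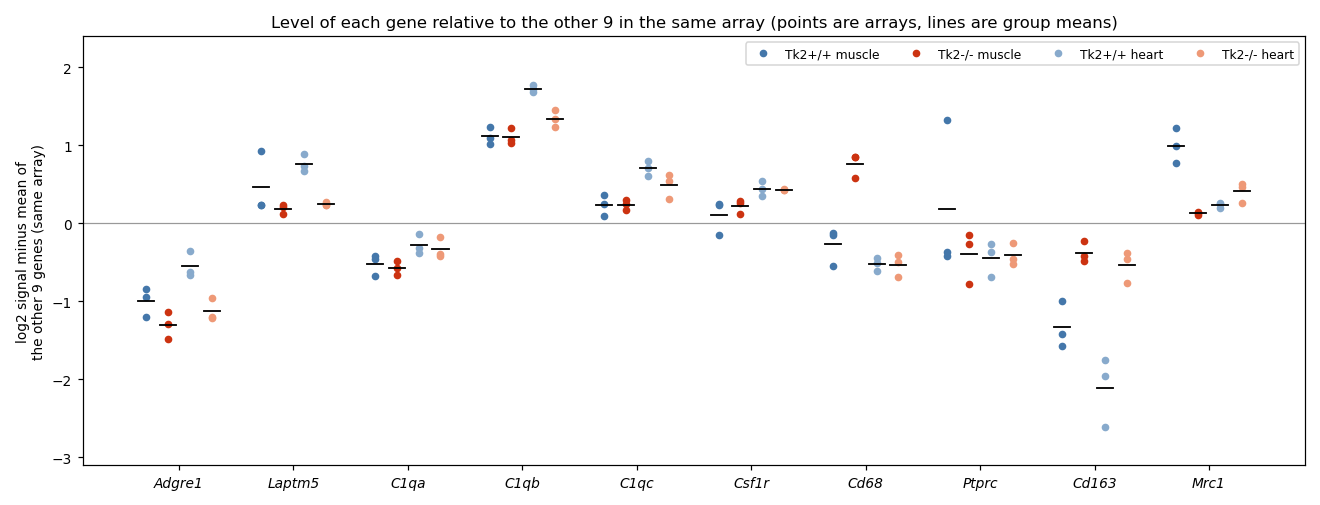
Log2 signal of each gene minus the mean log2 signal of the other 9 in the same array (vertical axis), for the 4 groups of 3 arrays; points are arrays and short lines group means. Cd68 and Cd163 are higher and Mrc1 lower in Tk2-/- than in Tk2+/+ muscle, and Cd163 is higher in Tk2-/- than in Tk2+/+ heart.

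Across the 12 arrays, 9 of the 10 genes were on average positively correlated with the other members of the set and Cd163 was not. As a description over arrays that share groups and brightness, C1qb and C1qc had the highest Pearson correlation of the log2 signals (r = 0.99), and the mean r with the other 9 was 0.71 for C1qa, Laptm5 and Csf1r, 0.69 for Adgre1 and C1qc, 0.68 for C1qb, 0.57 for Mrc1, 0.53 for Ptprc and 0.51 for Cd68. For Cd163 it was -0.14, ranging from -0.36 with Adgre1 to 0.61 with Cd68. Of all other genes, Pld4, a phospholipase of endosomes in macrophages, was most like the mean of the 10 standardized genes (r = 0.98 over 12 arrays). Unc93b1, which carries Toll-like receptors to endosomes, Atf6b, Sh3pxd2a, Zfp146, Tln1, Dhx30, Arfip2, Reep4 and Gpat4 completed the 10 most alike, with r of 0.97 or 0.98. Pld4 differed by -0.12 in skeletal muscle (limma, adjusted p = 0.548) and -1.18 in heart (adjusted p = 1.94e-06). After quantile normalization over 12 arrays, 4 of these were still among the 10 most alike, with Pld4 again first (r = 0.97).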

How the data were processed

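Total RNA of 12 tissue samples was hybridized to Mouse Gene 1.1 ST arrays of Affymetrix, with 3 per tissue and genotype. The authors deposited a linear intensity per probe set, normalized by a procedure not given in the sources used here. PLIER and Affymetrix Expression Console are listed in the submitters' processing notes. Intensities below about the offset carry little information, and array number, not depth, limits precision.

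Of 35556 probe sets, 21218 had 1 gene symbol in the platform annotation, 1881 several and 12457 none. The brightest probe set per gene was kept (18820 genes), log2(signal + 16) was taken, and 4 group means were fitted in limma 3.58.1 under R 4.3.3 with lmFit and eBayes, leaving 8 residual degrees of freedom, with 2-sided tests and Benjamini-Hochberg adjustment over all genes at 0.05. The offset understates changes of dim genes. Groups came from the sample labels. The labels call the samples biological replicates but do not tie tissues to mice. Alternatives were other scalings, offsets, filters, models, the methods' t-test and leaving out arrays; 2 were added after the data were seen. The fit was tested on simulated data in which no group was dimmer as a whole. That test therefore does not cover the dimness of the Tk2-/- heart arrays. The 10 genes and the 21 other marker lists (227 of 251 genes measured) were chosen with earlier results of these data known. Genes named besides the 10 were Tk2, Csf1, Il34, up to 3 rises and 3 falls per list and tissue, and the 10 genes most correlated with the mean of the 10; Casq1, Nppa, Myl7 and Cd209f in heart were chosen after their values were seen. Promoters came from RefSeq on GRCm38.p6. Figures were drawn with matplotlib in Python.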

Additional observations from a re-analysis of the deposited data

Results flagged for a closer look

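The genotype difference in skeletal muscle minus that in heart was past the threshold for 8 of the 10 genes in the test of this difference (limma, all 12 arrays), as it was in the same direction for 41.3% of all genes and 69.9% of genes in the same range of signal. It was 1.37 for Adgre1, 1.35 for Laptm5, 1.12 for C1qa, 1.46 for C1qb, 1.32 for C1qc, 1.24 for Csf1r, 2.06 for Cd68 and 0.57 for Cd163, all on the log2 scale of the deposited values. The Tk2-/- heart arrays were dimmer as a whole, and after quantile normalization within each tissue Laptm5 and Cd163 no longer passed, whereas Mrc1 passed with the opposite sign (-0.47), though not when both skeletal muscle arrays with other blood cell markers were left out as well (-0.44, adjusted p = 0.109). No group had more than 3 arrays, so single arrays were not tested as outliers.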

How the results depend on the processing

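The counts of the 10 genes called in each direction between genotypes in skeletal muscle (2 higher, 1 lower) stayed within 1.5 times under every alternative run, and so did the 9 called lower in heart. In heart, 0 genes were called higher, but 1 under median centring, upper-quartile scaling, both quantile normalizations, cyclic loess within each tissue and array weights, and 0 to 1 when 1 array was left out (1 without Tk2+/+ heart replicate 3). For skeletal muscle minus heart, 0 genes were below 0, but 1 under upper-quartile scaling, both quantile normalizations and cyclic loess. Between Tk2+/+ tissues, 2 genes were higher in muscle, but 0 under median centring, the methods' t-test or without both arrays with other blood cell markers, 1 under quantile normalization or cyclic loess over 12 arrays or with only the groups compared, and 0 to 1 when 1 array was left out. Between Tk2-/- tissues, 9 became 2 under median centring, upper-quartile scaling, quantile normalization and cyclic loess over 12 arrays. The cause was not tested. Over all alternative values, counts of genes included, 1103 kept their direction and their side of the threshold, 75 single-gene differences kept their direction but no longer passed, 17 came to pass, 33 turned sign, and 28 moved: counts by over 1.5 times, and Adgre1 against the mean of the other 9 in heart by more than the spread between arrays.

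The sign turned for these differences. In skeletal muscle, C1qa was 0.0162 under median centring; C1qb was -0.0046 under upper-quartile scaling, -0.0601 and -0.058 under quantile normalization within tissue and over 12 arrays, -0.064 under cyclic loess and -0.0226 with array weights; C1qc was -0.0085 under cyclic loess and -0.0101 with array weights. Leaving out 1 array gave -0.43 to 0.086 for Laptm5, -0.0999 to 0.0209 for C1qa, -0.0973 to 0.0734 for C1qb, -0.046 to 0.068 for C1qc and -0.84 to 0.12 for Ptprc; without both arrays with other blood cell markers Laptm5 was 0.0975 and Ptprc 0.0338, or 0.0836 and 0.0367 with quantile normalization as well. For skeletal muscle minus heart, Mrc1 was -0.43 under upper-quartile scaling, -0.47 and -0.46 under quantile normalization within tissue and over 12 arrays, -0.49 under cyclic loess and -0.44 under quantile normalization without both arrays, where it did not pass (adjusted p = 0.109); it passed with this sign under the other 4 settings. Between Tk2+/+ tissues, Ptprc was -0.0091 under median centring, -0.38 without both arrays and -0.38 to 0.58 when 1 array was left out. Between Tk2-/- tissues, C1qb was -0.0435 under quantile normalization and -0.0622 under cyclic loess, C1qc -0.0256 and Mrc1 -0.0564 under cyclic loess.

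The labels do not say whether samples with the same replicate number came from 1 mouse. Correlations of their deviations ran from -0.19 to 0.13 over the pairs of groups, which cannot decide this. With the replicate block no count of called genes changed: skeletal muscle kept counts of 2 and 1, heart of 0 and 9, for genes higher and lower.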
